A study of Mus musculus with 16 samples.

Results

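Total RNA of Nat1-null mouse embryonic stem cells was compared with total RNA of cells that kept 1 Nat1 allele. The comparison used 6 of the 16 libraries in the series, the 3 Total libraries of Nat1-/- (clones B12, B2 and C3, replicates 1, 2 and 3) and the 3 of Nat1+/- (clones A7, B4 and C1, replicates 1, 2 and 3). The series also holds ribosome-protected fragment libraries of the same cultures and 2 wild-type (WT) cultures of the parental line. All cultures were RF8 embryonic stem cells kept with LIF, the cytokine that holds mouse embryonic stem cells in self-renewal, on gelatin without a stated feeder layer. Each targeted culture is a separate named clone, and the labels do not say whether the clones of a genotype came from separate targeting events or share a parent. Genotype and clone history therefore cannot be told apart. The p-values measure only the spread among cultures of the same genotype, the 2 WT cultures included. Of 21977 genes, 13813 had a mean of at least 10 normalised reads over the 8 Total libraries and were tested. Tests used limma on log2(value + 1), and a gene was called when its Benjamini-Hochberg adjusted p was under 0.05.

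Eif4g2, earlier called Nat1 and also DAP5 or p97, is the targeted gene. Its protein resembles the initiation scaffold eIF4G but lacks the part that binds the cap-binding protein eIF4E, and it is known for translating a subset of mRNAs. In mouse embryonic stem cells it is known to be needed for normal differentiation rather than for growth. Total RNA measures the transcripts that cells accumulate, not what they translate. The N-acetyltransferase genes that share the symbol Nat1 are unrelated.

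Libraries held 13.2 to 14.8 M reads in Nat1+/-, 42.5, 16.4 and 14.2 M in B12, B2 and C3, and 42.6 and 33.6 M in WT, so a count of 0 allows up to 4.90 normalised reads in the shallowest library (counting error only). Eif4g2 itself read 15335, 12092 and 10674 in Nat1+/- and 12249, 8795 and 5085 in Nat1-/-, against 47932 and 26984 in WT. Its groups overlapped and its RNA was not called (-0.62 ± 0.31 log2, SE; adjusted p = 0.137; two-sided exact permutation p = 0.3, where 3 against 3 cannot go below 0.1). Without C3 the difference was -0.27, and without B12 it was -0.91 and was called. The position of the targeted exons was not used here. Ribosome footprints on Eif4g2 did not overlap between the groups, with 10261, 7608 and 7275 normalised reads in A7, B4 and C1 against 1089, 1114 and 922 for B12, B2 and C3, which is the direction of the labels. All 15 embryonic stem cell markers were tested and none was near 0, with summed levels of 136060 to 163560 in Nat1+/- and 212528 to 229892 in Nat1-/-. Of 13 fibroblast markers, 9 were tested and 5 of these fell (Acta2, Thy1, Tagln, Col1a2 and Pdgfra; median log2 difference -1.67 over the 9). The summed level of the 13, mostly that of the fibronectin gene Fn1, which is read in all libraries, was 29136 to 50880 in Nat1+/- and 15064 to 41846 in Nat1-/-. Lum and S100a4 were listed at 0 in all 6 libraries compared, and Postn in all but B4. Col1a1 read 29.4, 284 and 41.4 in Nat1+/- and 21.2, 23.98 and 19.4 in Nat1-/-, and B4 was high. Of the blood list, Lyz2 was at 0 in the 6 libraries, and the tested members were Cd34, which fell (-1.62 ± 0.42; call lost without B2), and Cd68, which read 204, 135 and 117 in Nat1+/- and 172, 270.4 and 417 in Nat1-/- and was not called (adjusted p = 0.0758). Whether fewer cells of a kind or less RNA per cell lay behind any difference cannot be told apart in bulk RNA.

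Loss of the second allele was accompanied by differences across a large share of the transcriptome. Of the 13813 genes, 5519 (40.0%) were called, 2730 higher (19.8%) and 2789 lower (20.2%) in Nat1-/-. These shares are the background for every gene group that follows, but they differ with level, as given below. The groups were not matched for level. Beside a group, each library is named whose omission moved a count of calls by over 1.5 times and by at least 2 genes. The lower genes moved farther, with a median log2 difference of -1.35 against 0.81 among the higher ones. Calls of at least 2-fold numbered 930 higher (6.73%) and 1765 lower (12.8%), and calls of at least 4-fold 156 (1.13%) and 865 (6.26%). The median over all tested genes was 0.01, and the values of the 3 and 3 libraries did not overlap for 6934 genes (50.2%). Without B2, 3579 genes were called, 1665 of them higher.

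**Figure D1:**
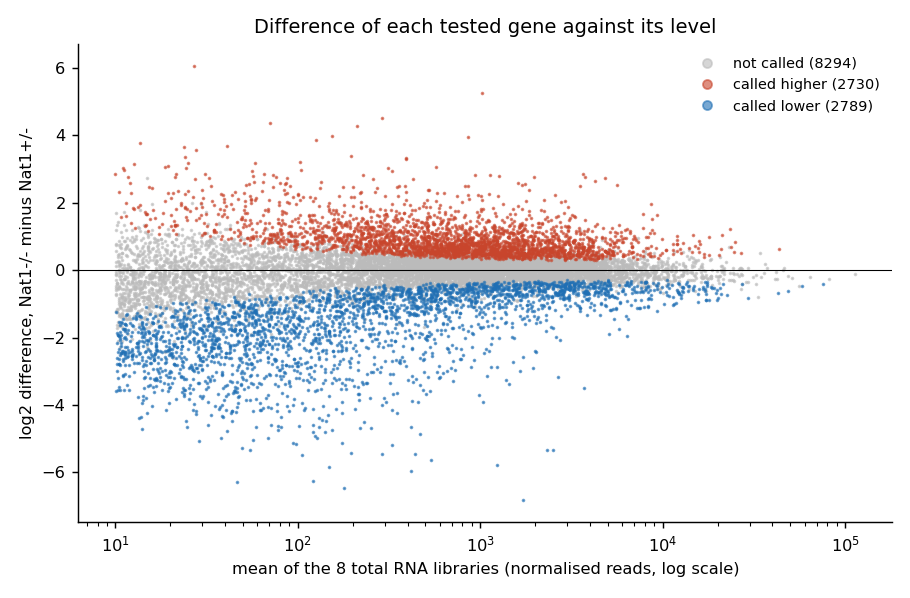
Each point is 1 tested gene, with its mean over the 8 Total libraries on the x axis (normalised reads, log scale) and its log2 difference, Nat1-/- minus Nat1+/-, on the y axis. Called genes below about 200 reads lie mostly under the line at 0, and between 200 and 5000 reads more lie above it.

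Direction went with level. Among 2209 genes with means of 10 to 50, 5.84% were higher and 32.1% lower. With means of 50 to 200 the shares over 2124 genes were 16.9% and 31.6%. Among 4469 genes with means of 200 to 1000 the shares were 25.2% and 16.2%, and among 835 genes of at least 5000 128 (15.3%) were higher and 160 lower. The mean that sets the class includes the 5 libraries that are not Nat1-/-, so a gene read only in Nat1-/- reaches a class less easily than one read only elsewhere.

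The highest differences belonged to genes that were read at low levels in Nat1+/-. Islr2, a leucine-rich repeat membrane protein of developing neurons, read 55.5, 27.4 and 203 in Nat1+/- and 2497, 2714 and 2645 in Nat1-/- (5.25 ± 0.56 log2, SE; adjusted p = 0.000157). The 3 Nat1-/- clones lay close together, and the highest Nat1+/- clone, C1, was far under them. Tbx20, a T-box factor known from heart development, read 17.96, 18.7 and 38.5 in Nat1+/- and 994, 671 and 269.9 in Nat1-/- (4.53 ± 0.45; adjusted p = 0.000107). Vax2, an eye homeobox factor, read 29.4, 14.4 and 39.96 in Nat1+/- and 435, 536 and 598 in Nat1-/- (4.28 ± 0.37; adjusted p = 5.75e-05). Neither gene's groups overlapped, and WT was low for Vax2 (16.1 and 27.8) but intermediate for Tbx20 (163 and 152).

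Foxd3, a forkhead repressor of embryonic stem and neural crest cells, read 122, 80.6 and 146 in Nat1+/- and 2549.7, 2158 and 965 in Nat1-/- (3.94 ± 0.34; adjusted p = 5.71e-05). Here C3 stood at less than the other null clones, a pattern shared by Tbx20. Fgfr3, an FGF receptor, read 63.7, 95.01 and 113 in Nat1+/- and 845, 1060.4 and 804 in Nat1-/- (3.33 ± 0.24; adjusted p = 1.9e-05). Skida1 (4.36), Ankrd33b (3.31), Ankrd34a (3.21), the beta-adrenergic receptor Adrb1 (3.18) and Tmem151b (3.05) were also higher without overlap. The homeobox gene Nkx6-3 read 121, 18.7 and 215 in Nat1+/- and 968, 771 and 380.2 in Nat1-/- (3.03 ± 0.79; adjusted p = 0.0133), with B4 far under A7 and C1, and its difference was 2.02 without B4. The call of Nkx6-3 was lost without B2.

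The lowest differences left few reads in the null clones. Peg3, a zinc finger gene read from the paternal allele, read 2681, 3679 and 2405 in Nat1+/- and 59.00, 47.96 and 4.47 in Nat1-/- (-6.83 ± 0.71; adjusted p = 0.00014). C3 was lowest, with 3 counted reads. Klhl13, an X-linked ubiquitin ligase adaptor, read 2652, 4193 and 1979 in Nat1+/- and 52.8, 77.3 and 76.04 in Nat1-/- (-5.35 ± 0.25; adjusted p = 1.23e-05). Snrpn, a paternally expressed spliceosome gene of the Prader-Willi region, read 1607, 1837 and 1028 in Nat1+/- and 55.9, 37.3 and 7.45 in Nat1-/- (-5.78 ± 0.57; adjusted p = 0.00011). The phospholipid flippase gene Atp10a, of the same chromosome region, read 428, 719.8 and 528 in Nat1+/- and 17.6, 9.33 and 5.96 in Nat1-/- (-5.63 ± 0.34; adjusted p = 1.58e-05).

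Dtna, a dystrobrevin, fell by 6.47 on the log2 scale (433, 337 and 247 in Nat1+/- and 4.66, 1.33 and 2.98 in Nat1-/-). Plac8 (-5.97), Crispld1 (-5.84), the phospholipase Pla2g4a (-5.48) and the cohesin protector relative Sgol2b (-5.43) also fell, each without overlap. The X-linked Rhox5, a homeobox gene of the reproductive tract and placenta, read 431, 1889 and 209.8 in Nat1+/- and 13.97, 9.33 and 11.9 in Nat1-/- (-5.46 ± 0.62), and Xlr3a read 80.01, 679 and 116 in Nat1+/- and 1.55, 0 and 4.47 in Nat1-/- (adjusted p = 0.000366). Xlr3a held at most 3 counted reads in each null clone, so the size of its difference depends on the pseudocount and is not given. The guanylate-binding GTPase Gbp2b read 35.9, 559 and 78.5 in Nat1+/- and 1.55, 6.66 and 0 in Nat1-/- (-5.45 ± 0.96; adjusted p = 0.00187). B4 was the highest Nat1+/- clone for 11 of the 12 lowest genes, all but Dtna, and the calls of all 12 held without it. At such low counts log2(value + 1) understates a difference.

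**Figure D2:**
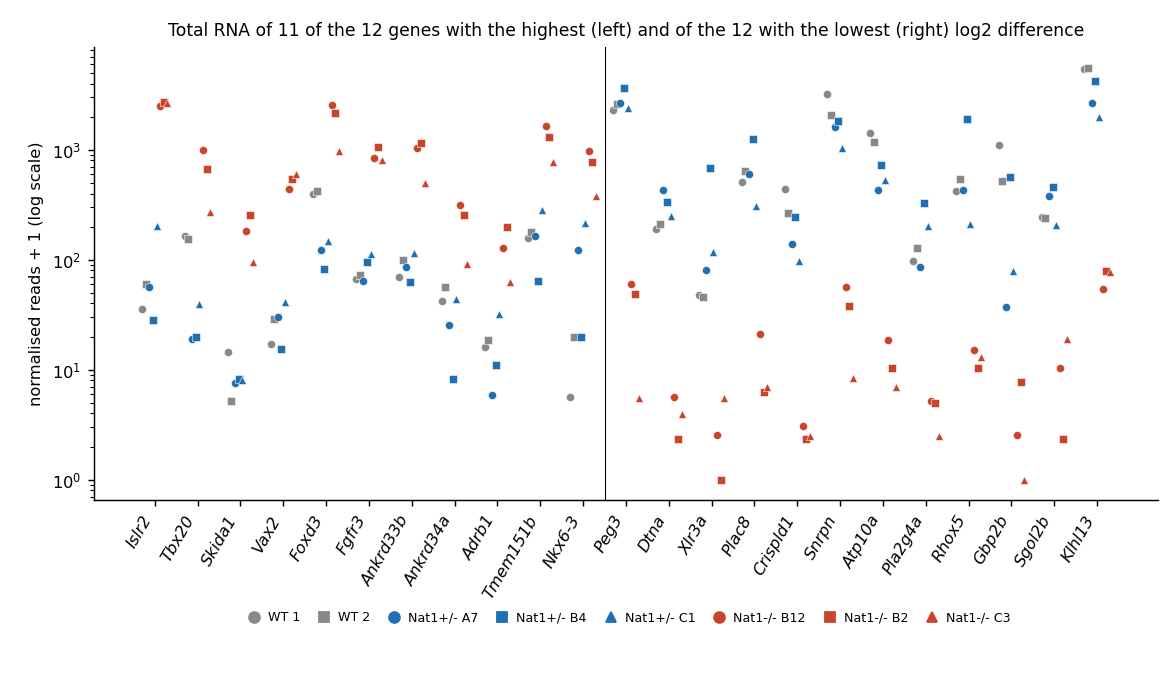
Values of 11 of the 12 genes with the highest and of the 12 with the lowest log2 difference among calls that average 50 reads or more and do not overlap (normalised reads + 1, log scale), 1 point per library and no error bars. The red Nat1-/- points lie above all blue Nat1+/- points on the left and under them on the right, as the choice of genes requires, and the grey WT points are mostly nearer the blue ones.

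Among called genes with the most reads, the differences were small. The cytosolic chaperone Hsp90aa1 read 56941, 53451 and 56028 in Nat1+/- and 32334, 34777 and 36666 in Nat1-/- (-0.68 ± 0.13; adjusted p = 0.00337), and Tubb5, a beta-tubulin, read 37954, 34429 and 31679.6 in Nat1+/- and 20354, 22349 and 15824 in Nat1-/- (-0.84 ± 0.16; adjusted p = 0.00269). For both, every null clone lay under every Nat1+/- clone. WT read 32730 and 41307 for Hsp90aa1, nearer the null clones. The nucleolar protein Npm1 (-0.48), beta-actin (Actb, -0.61) and Hsp90ab1 (-0.40) were also lower, and Trim28, a corepressor of zinc finger proteins, was higher (0.62 ± 0.18). The call of Npm1 was lost without B4 or B2. The call of Actb was lost without B4. The call of Hsp90ab1 was lost without any 1 of the 6 libraries. The call of Trim28 was lost without C1 or B2.

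Genes of chromosome 8 were lower as a block. Of 752 tested genes there, 316 (42.0%) fell and 40 (5.32%) rose. The median log2 difference from the Nat1+/- mean stood at -0.41, -0.39 and -0.41 in clones B12, B2 and C3. The Nat1+/- clones A7, B4 and C1 stood at 0.03, -0.04 and 0.01, and the WT cultures at 0.07 and 0.10. Divided by gene order into 4 equal bins, the chromosome had medians under 0 in every bin of all 3 null clones, with median log2 differences of -0.35, -0.47, -0.34 and -0.55. Ribosome footprint libraries of the same cultures, which share the cells, had medians of -0.43, -0.44 and -0.40 in B12, B2 and C3. Chromosome copy number was not measured, and what the shift rests on was not tested. Of the genes named above, Sgol2b and Nkx6-3 lie on chromosome 8.

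The X chromosome was lower to a lesser and less even extent. Of its 481 tested genes, 161 (33.5%) fell and 47 (9.77%) rose, with medians of -0.38, -0.30 and -0.19 in B12, B2 and C3. Its 4 bins had medians of -0.06, -0.27, -0.39 and -0.47, and in the last of them the Nat1+/- clone C1 stood at 0.41. On chromosome 1, with 75 higher and 215 lower of 767 genes, the clones of a genotype stood apart, A7, B4 and C1 at -0.03, 0.20 and -0.15 and B12, B2 and C3 at -0.03, -0.31 and -0.27. WT stood at -0.32 and -0.37 there, under every Nat1+/- clone and near B2 and C3. On chromosome 11 A7 stood at -0.16 and B4 at 0.21, the null clones between -0.03 and 0.01, and WT at 0.37 and 0.40. Over the other 16 autosomes the medians of the libraries ran from -0.159 to 0.161.

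**Figure D3:**
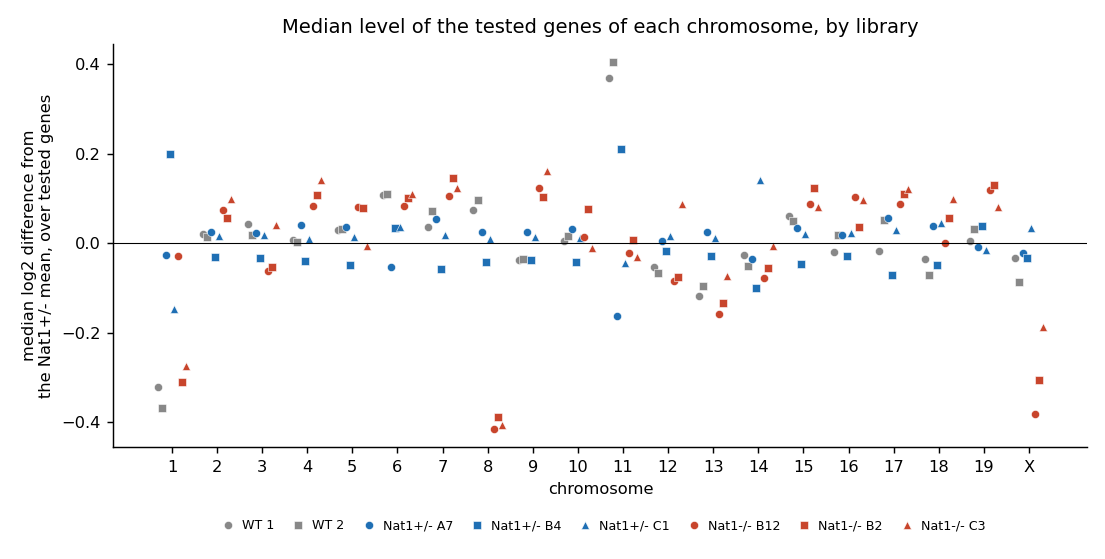
Median over the tested genes of each chromosome of the log2 difference from the Nat1+/- mean, 1 point per library. The 3 Nat1-/- libraries lie near -0.4 on chromosome 8, and chromosomes 1, 11 and X also have libraries apart from 0.

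Where each library was centred within each chromosome, an alternative chosen after seeing the data, 5441 genes were called. Chromosome 8 then had 143 higher and 152 lower genes, and 152 of its 316 lower calls were among them. In the groups that follow, the value after centring is given for named genes of chromosome 8 that fell, and the adjusted p after centring for named genes of any chromosome whose call ended.

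Pluripotency factors were mostly higher in the null clones. Of 15 embryonic stem cell markers, 8 rose and 1 fell (median log2 difference 0.51). Nanog read 4709, 5051 and 4527 in Nat1+/- and 9502, 9259.7 and 8650.2 in Nat1-/- (0.94 ± 0.13; adjusted p = 0.000646). Sox2 read 13753, 13454 and 12762 in Nat1+/- and 21977, 22376 and 24369 in Nat1-/- (0.78 ± 0.11; adjusted p = 0.000628), and Pou5f1, which encodes Oct4, read 20294, 16628 and 19118 in Nat1+/- and 33682, 31391 and 24797 in Nat1-/- (0.67 ± 0.15; adjusted p = 0.00564). The groups did not overlap for any of them. Fbxo15, named after its values were seen, was the marker that fell (4203, 4982 and 3174 in Nat1+/- and 1353, 2052 and 2679 in Nat1-/-; -1.05 ± 0.25). Without B4 there were 5 higher among the stem cell markers. Leaving out B2 gave 5 higher among the stem cell markers.

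Families of transcription factors went both ways. Of 21 Klf and Sp factors, 8 rose and 6 fell (median log2 difference 0.29). Klf4, a factor of the naive state, read 1788, 1609 and 3079.8 in Nat1+/- and 14431, 12631 and 9024 in Nat1-/- (2.51 ± 0.24; adjusted p = 9.87e-05), and Klf5 (1.33), Klf8 (1.27) and Klf13 (1.66) were also higher. Tbx3 read 1902, 1114 and 1511 in Nat1+/- and 11011, 10536 and 6791 in Nat1-/- (2.65 ± 0.28), and with Tbx20 and Eomes (0.82) made 3 higher of 8 T-box genes, while Tbx4 fell (17.96, 23.03 and 14.3 in Nat1+/- and 1.55, 0 and 2.98 in Nat1-/-), with at most 3 counted reads in each null clone. Of 22 forkhead genes, 10 rose and 2 fell (median log2 difference 0.39), with Foxo6 (2.19) higher and Foxp1 (-1.02) and the X-linked Foxr2 (-2.42) lower. The call of Eomes was lost without B2.

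The SoxC genes Sox4 and Sox11, which act in neural and epithelial progenitors, fell farthest of 14 Sox genes. Sox11 read 673, 916 and 1310.1 in Nat1+/- and 61.6, 66.6 and 87.96 in Nat1-/- (-3.69 ± 0.27; adjusted p = 2.02e-05) and Sox4 914, 786 and 714 in Nat1+/- and 127, 71.9 and 68.6 in Nat1-/- (-3.21 ± 0.23; adjusted p = 2.1e-05). Sox1, an early neural factor on chromosome 8, rose where most called genes of its chromosome fell, and read 50.6, 44.6 and 47.1 in Nat1+/- and 212, 208 and 234 in Nat1-/- (2.18 ± 0.25). In all, 5 Sox genes rose and 4 fell (median log2 difference -0.11). Neurod1, a basic helix-loop-helix factor of neurons and endocrine cells, read 124, 149.7 and 148 in Nat1+/- and 7.76, 14.7 and 7.45 in Nat1-/- (-3.75 ± 0.33), while the Myc partner Max rose (1.04), in a list of 7 higher and 7 lower of 23. The homeobox genes Lhx5 (3.55), Meis2 (2.82) and Pbx2 (1.45) rose, among 8 higher and 7 lower of 24. With A7 left out the counts were 4 lower among the Id and bHLH genes. The fit without B4 had 4 lower among the Id and bHLH genes. Omitting C1 gave 3 lower among the Id and bHLH genes. Dropping B2 gave 3 lower among the Id and bHLH genes.

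Nuclear receptors had more higher than lower members, 10 and 5 of 27 (median log2 difference 0.52). Rxra, the shared partner of many of these receptors, read 356, 377 and 381 in Nat1+/- and 1512, 1152 and 890.1 in Nat1-/- (1.64 ± 0.20; adjusted p = 0.0003), and Nr2c2 (1.02), Nr4a1 (1.11) and Nr1d2 (0.88) rose too. Of 4 Gata genes only Gata2 was called (39.2, 34.5 and 47.1 in Nat1+/- and 273, 119.9 and 131 in Nat1-/-; 1.998 ± 0.36). Of 6 Hox genes above the minimum, Hoxb13 (2.34), Hoxc12 (1.62) and Hoxc13 (0.92) were higher, and Hoxc13 was not called after centring (adjusted p = 0.0605). Zscan4d, a marker of the 2-cell-like state, read 16.3, 12.96 and 17.1 in Nat1+/- and 0, 0 and 1.49 in Nat1-/-, at or under 3 counted reads in every null clone, and is one of a group of near-identical genes among which counting can divide reads. Zscan5b fell as well (-4.06), and of 24 tested Zscan and Zkscan genes 2 rose and 6 fell (median log2 difference 0.04). The call of Hoxc12 was lost without C1 or B2. The call of Hoxc13 was lost without B4, C1, B12, B2 or C3. When B4 was dropped there were 6 higher among the nuclear receptors, 3 lower among the nuclear receptors and 2 lower among the Zscan and Zkscan genes. Without C1 there were 3 lower among the nuclear receptors and 1 higher among the Hox genes. Leaving out B12 gave 5 higher among the nuclear receptors. With B2 left out the counts were 6 higher among the nuclear receptors, 2 lower among the nuclear receptors, 1 higher among the Hox genes and 2 lower among the Zscan and Zkscan genes.

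DNA methylation genes moved both ways. Dnmt3a, a de novo DNA methyltransferase, read 2669.6, 3207 and 2212 in Nat1+/- and 542, 446 and 507 in Nat1-/- (-2.42 ± 0.16; adjusted p = 1.58e-05), with no overlap and little spread in the null clones. Tet2, an enzyme that oxidises methylcytosine, read 6939, 3576 and 5824 in Nat1+/- and 17617, 16954 and 14131 in Nat1-/- (1.62 ± 0.24; adjusted p = 0.000719). Zfp57, which keeps methylation at imprinted regions, read 4213, 2941 and 5997 in Nat1+/- and 15507, 13957 and 11150.4 in Nat1-/- (1.67 ± 0.23; adjusted p = 0.000555). Dppa3, which protects the maternal genome's methylation after fertilisation, fell (384, 967 and 361 in Nat1+/- and 20.2, 10.7 and 20.9 in Nat1-/-; -4.87 ± 0.38). In all 5 of 18 rose and 3 fell (median log2 difference 0.10). The fit without B4 had 3 higher among the DNA methylation genes. Omitting B12 gave 3 higher among the DNA methylation genes. Dropping B2 gave 3 higher among the DNA methylation genes.

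More of the other chromatin regulators rose than fell. Of 30 Polycomb genes, 12 rose and 2 fell (median log2 difference 0.26), with Mtf2 (0.65), Aebp2 (0.70), Cbx6 (0.90) and Kdm2b (0.67) higher. Of 13 histone acetyltransferase genes, 6 rose and 2 fell (median log2 difference 0.26). Ep300 read 3453, 3361 and 3227 in Nat1+/- and 8395, 6595 and 5111 in Nat1-/- (0.97 ± 0.17) and its paralogue Crebbp 1966, 1964 and 1909.5 in Nat1+/- and 5222, 4087 and 2788 in Nat1-/- (1.004 ± 0.19), C3 being nearest Nat1+/- for both. Of 54 histone methylation genes, 14 rose and 4 fell (median log2 difference 0.23). Prdm14, a repressor of the differentiation programme, read 451, 410.3 and 424 in Nat1+/- and 1123, 1283 and 1297 in Nat1-/- (1.52 ± 0.18), Kmt2d (1.102) and Kdm2a (0.76) rose, and Setd7 fell (-1.94). Remodeller genes had 6 higher and 5 lower of 31, near the shares over all genes. Among them Smarcd3 (1.55) was higher and Chd9 of chromosome 8 lower (-1.003, -0.60 after centring). When B4 was dropped there were 0 lower among the histone acetyltransferase genes and 2 lower among the remodeller genes. Without C1 there were 3 lower among the remodeller genes. Leaving out B12 gave 3 lower among the remodeller genes. With B2 left out the counts were 2 lower among the histone methylation genes and 2 lower among the remodeller genes. The fit without C3 had 7 lower among the histone methylation genes.

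Genes of the piRNA pathway, which silences transposons in germ cells by means of PIWI proteins and small RNAs, were low in all 3 null clones. Of 21 tested, 1 rose and 13 fell (median log2 difference -1.84), and the 1 higher gene was the widely used corepressor Trim28. The promoters of 19 of the 21 were in the RefSeq table (GRCm38.p6, 250 bases before to 50 after the start). The letters CACGTG, an E-box that reads the same on both strands, stood in those of 6 of 12 lower members and 1 of 6 that were not called, in 7.24% of all 27025 promoters in the table and in 10.2% of the 10464 that belong to tested genes (75.8% of those tested). The motif was chosen after the sequences were seen, and a match is a description only. The 250 bases before the start are shown for 3 of the 6, the tudor protein gene Tdrd1 (chr19:56825959-56826208, plus strand), the RNA helicase gene Ddx4 (chr13:112652311-112652560, minus strand) and the helicase gene Mov10l1 (chr15:88982744-88982993, plus strand), each 5′ to 3′ on its gene's strand and with CACGTG in capitals, to let the shared letters be seen in context.
Tdrd1: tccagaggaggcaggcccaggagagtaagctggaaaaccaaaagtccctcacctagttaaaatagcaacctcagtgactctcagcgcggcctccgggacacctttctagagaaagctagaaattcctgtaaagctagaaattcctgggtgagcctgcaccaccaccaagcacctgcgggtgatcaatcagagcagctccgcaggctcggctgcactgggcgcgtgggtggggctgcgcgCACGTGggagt
Ddx4: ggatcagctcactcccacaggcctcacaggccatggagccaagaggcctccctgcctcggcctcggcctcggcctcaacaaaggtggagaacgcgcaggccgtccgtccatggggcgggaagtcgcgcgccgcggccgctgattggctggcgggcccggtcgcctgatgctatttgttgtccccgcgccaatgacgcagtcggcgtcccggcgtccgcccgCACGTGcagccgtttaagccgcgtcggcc
Mov10l1: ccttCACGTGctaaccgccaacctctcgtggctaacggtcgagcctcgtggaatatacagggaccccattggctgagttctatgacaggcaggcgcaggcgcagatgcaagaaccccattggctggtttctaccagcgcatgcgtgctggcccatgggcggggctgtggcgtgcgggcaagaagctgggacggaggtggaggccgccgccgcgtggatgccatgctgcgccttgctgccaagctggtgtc

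The PIWI protein gene Piwil4 read 189, 376 and 81.3 in Nat1+/- and 11.9, 6.66 and 2.98 in Nat1-/- (-4.62 ± 0.56; adjusted p = 0.000304). Tdrd1 read 99.6, 164 and 186 in Nat1+/- and 25.4, 11.99 and 5.96 in Nat1-/- (-3.45 ± 0.46; adjusted p = 0.000453), Tdrd12 2048, 1933 and 1317 in Nat1+/- and 164, 127 and 365 in Nat1-/- (-3.13 ± 0.34; adjusted p = 0.000161) and Tdrkh 152, 374 and 294 in Nat1+/- and 39.8, 14.7 and 29.8 in Nat1-/- (-3.25 ± 0.42; adjusted p = 0.000408). C3 was the highest null clone for Tdrd12 and, among the genes given next, for Mov10l1. Outside the rule for named genes, and chosen after their values were seen, Ddx4 read 738, 792 and 1357 in Nat1+/- and 339, 216 and 276 in Nat1-/- (-1.76 ± 0.25) and Mov10l1 418, 699.6 and 678 in Nat1+/- and 179, 109 and 219 in Nat1-/- (-1.84 ± 0.30). Piwil2 (-0.93), also named after its values were seen, had the smallest difference of the lower members. Asz1 (-2.05, adjusted p = 0.0702) and Fkbp6 (-1.28, adjusted p = 0.0666), named in the same way, were not called. Median differences of the list from the Nat1+/- mean were -0.37, 0.55 and -0.17 for A7, B4 and C1, against -1.85, -2.30 and -1.41 for the null clones B12, B2 and C3.

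LIF signalling genes were higher or not called. LIF acts through the receptor chains Lifr and Il6st, JAK kinases and Stat3. Of 24 genes, 11 rose and 0 fell (median log2 difference 0.55). Lifr read 4552, 3819 and 5059 in Nat1+/- and 9117, 8624 and 9036 in Nat1-/- (1.005 ± 0.13; adjusted p = 0.000352) and the kinase gene Pim3 4799, 3527 and 4777 in Nat1+/- and 10472, 11243 and 8658 in Nat1-/- (1.22 ± 0.16; adjusted p = 0.000382). Neither overlapped. The count of lower genes was also 0 at an unadjusted p under 0.05 with limma and in edgeR and DESeq2. Tyk2 (1.13) and Stat6 (0.81) rose, whereas Stat3 (0.30, adjusted p = 0.155) and Il6st (0.04, adjusted p = 0.884), both named after their values were seen, were not called.

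FGF receptors moved in opposite directions. Fgfr2 read 222, 354 and 221 in Nat1+/- and 11.4, 5.33 and 11.9 in Nat1-/- (-4.69 ± 0.32; adjusted p = 1.9e-05), while Fgfr3 rose as given above. The ligand genes Fgf10 (24.5, 18.7 and 47.1 in Nat1+/- and 185, 171 and 218 in Nat1-/-; 2.72 ± 0.34) and Fgf3 (1.77) rose. In the list of 18 ligands and receptors, 6 rose and 6 fell.

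In the TGF-beta superfamily, 14 of 39 genes rose and 10 fell. Smad7, an inhibitor of these receptors that they induce, read 1259, 599 and 1343 in Nat1+/- and 9755, 7469 and 5289.7 in Nat1-/- (2.86 ± 0.30; adjusted p = 0.000147), and the Nodal inhibitor Lefty2 read 5527, 4542 and 5142 in Nat1+/- and 13971, 11472 and 10702 in Nat1-/- (1.24 ± 0.15; adjusted p = 0.000286). The BMP receptor Bmpr1b was all but lost (119, 199 and 107 in Nat1+/- and 2.59, 5.33 and 1.49 in Nat1-/-; -5.16 ± 0.40), and the ligand Bmp7 fell (-2.23). Both inhibitor genes were higher in all 3 null clones than in any Nat1+/- clone. Omitting C1 gave 6 lower among the TGF-beta superfamily genes. Dropping B2 gave 6 lower among the TGF-beta superfamily genes.

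WNT and Notch components were more often lower. Of 37 WNT ligands, receptors and secretion genes, 6 rose and 14 fell (median log2 difference -0.41). Wls, which carries WNT proteins out of the cell, read 65.3, 137 and 163 in Nat1+/- and 9.83, 9.33 and 14.9 in Nat1-/- (-3.24 ± 0.37; adjusted p = 0.000222). The receptor Fzd7 read 4583, 3818 and 2899.9 in Nat1+/- and 1124, 1127 and 1127 in Nat1-/- (-1.72 ± 0.16) and the receptor Fzd5 5387, 5381 and 5222 in Nat1+/- and 19229, 15715 and 11933 in Nat1-/- (1.52 ± 0.16), so these receptors moved in opposite directions. The secreted WNT binder Sfrp2 fell (-2.63). Of 21 Notch genes, 2 rose and 10 fell (median log2 difference -0.75). The glycosyltransferase Lfng, which tunes Notch to its ligands, read 158, 168 and 101 in Nat1+/- and 13.5, 18.6 and 26.8 in Nat1-/- (-2.82 ± 0.31), Dtx4 (-4.11), the ligand Jag2 (-1.09) and the target Hey1 (-1.96) fell, and the receptor Notch4 rose (1.595).

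Of 14 Hedgehog genes 5 rose and 4 fell. The receptor Ptch1 read 5274, 4349 and 3083 in Nat1+/- and 1864, 1893 and 1883 in Nat1-/- (-1.14 ± 0.18; adjusted p = 0.000968), and the coreceptor Gas1 (-1.79) and the transcription factor Gli3 (-1.35) fell with it, while Disp1 rose (0.87). In the insulin, PI3K and mTOR list, 9 of 36 rose and 4 fell. The insulin receptor substrate Irs1 read 114, 266 and 189.8 in Nat1+/- and 8.28, 9.33 and 10.4 in Nat1-/- (-4.13 ± 0.32; adjusted p = 2.8e-05), and Sgk1 (1.19), Rps6kb2 (1.496) and Tsc2 (0.79) rose. When B4 was dropped there were 2 higher among the Hedgehog genes and 2 lower among the PI3K and mTOR genes. Without B12 there were 2 lower among the PI3K and mTOR genes. Leaving out B2 gave 2 higher among the Hedgehog genes.

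**Figure D4:**
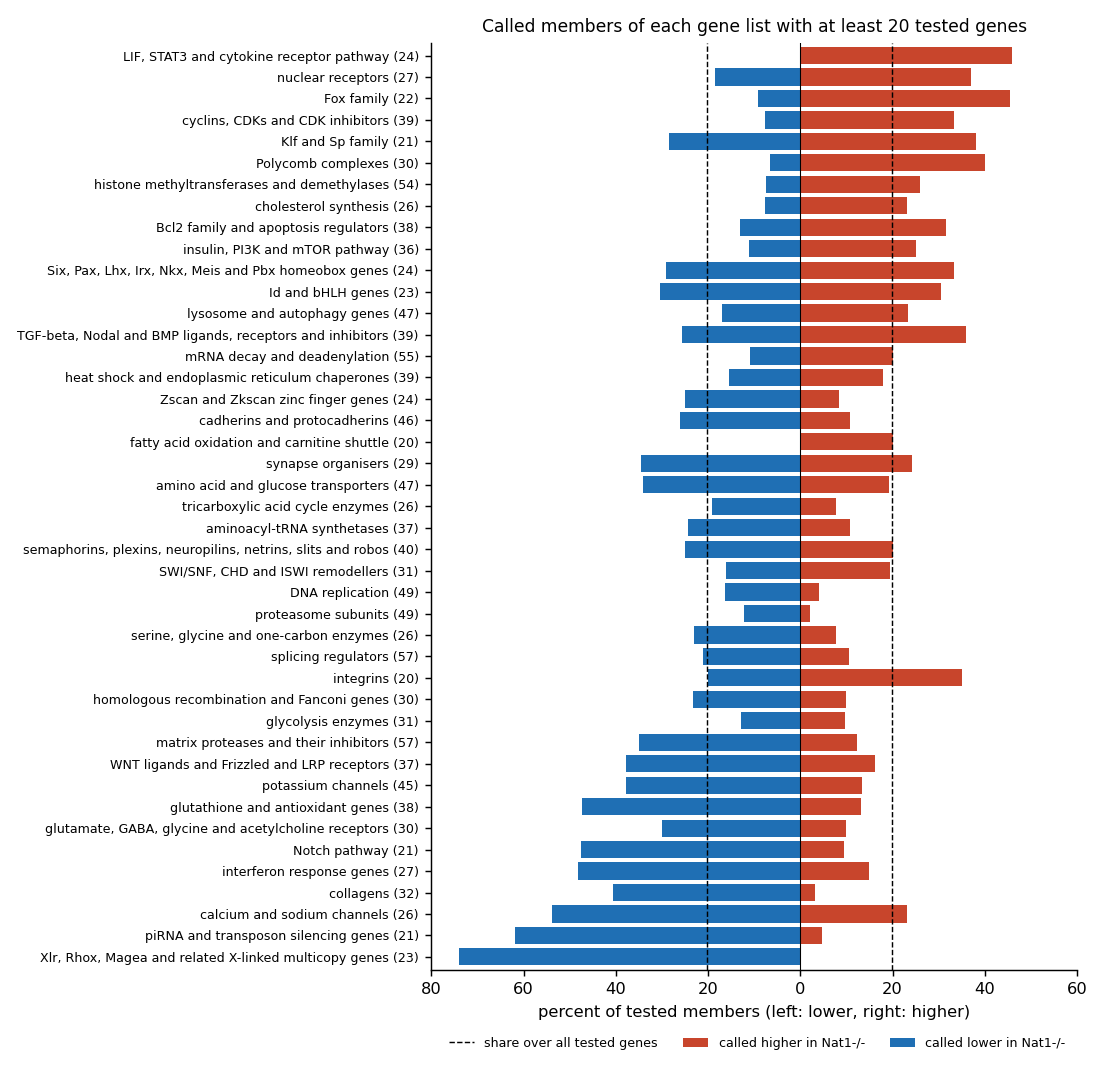
Percent of the tested members of each gene list that were called higher (right, red) or lower (left, blue), for lists of at least 20 tested genes, ordered by median log2 difference, with the number tested in brackets. Dashed lines give the share over all 13813 tested genes, 19.8% higher and 20.2% lower. X-linked multicopy genes, at the bottom, had 17 of 23 lower, and LIF pathway genes, at the top, 11 of 24 higher.

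Guidance receptors and ligands, which steer axons and migrating cells, included large differences in both directions. Nrp2, a semaphorin and VEGF coreceptor, read 1633, 1653 and 1367 in Nat1+/- and 215, 244 and 243 in Nat1-/- (-2.72 ± 0.14; adjusted p = 1.4e-05), with tight values in both groups. Sema3c was at or under 3 counted reads in every null clone (17.96, 67.7 and 35.7 in Nat1+/- and 0.518, 0 and 0 in Nat1-/-), and Sema5a fell (-3.37), while Sema5b read 222, 252 and 389.6 in Nat1+/- and 1083, 1172 and 1246 in Nat1-/- (2.06 ± 0.21). In the lists, 8 were higher and 10 lower of 40 for semaphorin, plexin, netrin and slit genes and 4 and 4 of 18 for ephrins and their receptors. These counts were near the shares over all genes. Efnb3 (2.46) and Ephb2 (1.02) rose and Epha7 (-3.44) and Epha8 (-2.38) fell. With B4 left out the counts were 5 higher among the guidance genes. The fit without B2 had 5 higher among the guidance genes.

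Of 46 cadherin and protocadherin genes, which join neighbouring cells, 5 rose and 12 fell (median log2 difference -0.02). E-cadherin, Cdh1, read 15451, 14559 and 13969 in Nat1+/- and 6106, 7489 and 7821 in Nat1-/- (-1.04 ± 0.13; adjusted p = 0.000304) and P-cadherin, Cdh3, 1883, 1627 and 1832 in Nat1+/- and 369, 352 and 297 in Nat1-/- (-2.39 ± 0.14; adjusted p = 1.48e-05). Both lie on chromosome 8, and after centring their differences were -0.64 and -1.99. N-cadherin, Cdh2, read 65.3, 83.5 and 113 in Nat1+/- and 6.21, 5.33 and 2.98 in Nat1-/- (-3.93 ± 0.32), and the desmosomal Dsg2 rose (1.39). Of 18 tight junction genes, 3 rose and 9 fell (median log2 difference -0.62). Cingulin (Cgn) read 834, 1195 and 935 in Nat1+/- and 153, 196 and 240.0 in Nat1-/- (-2.33 ± 0.21), and Cldn4 (-1.55), Cldn5 (-2.803) and Marveld3 of chromosome 8 (-2.09, -1.69 after centring) fell. Omitting A7 gave 1 higher among the tight junction genes. Dropping B4 gave 1 higher among the tight junction genes. When B2 was dropped there were 0 higher among the tight junction genes.

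Of 32 collagens, 1 rose and 13 fell (median log2 difference -1.29), with Col2a1 (91.4, 202 and 139.9 in Nat1+/- and 37.8, 21.3 and 19.4 in Nat1-/-; -2.41 ± 0.35), Col22a1 (-2.499), Col9a2 (-1.79) and Col6a1 (-2.94) lower. Collagen medians were -0.45, 0.45 and -0.04 in A7, B4 and C1, and fibroblast markers were also highest in B4, at 1.45 against -0.86 and -0.36. In B12, B2 and C3 the medians were -1.47, -1.36 and -1.05 for collagens and -1.34, -1.52 and -1.85 for fibroblast markers, which share Col1a1, Col1a2 and Col3a1 with the collagens. The part of such cells in the collagen and other matrix values was not tested. Of 13 laminin, nidogen and perlecan genes 1 rose and 4 fell (median log2 difference 0.00). The laminin chain Lamb1 read 3648, 4288 and 5584 in Nat1+/- and 655, 439.6 and 406 in Nat1-/- (-3.18 ± 0.23; adjusted p = 1.9e-05), Lama3 (-2.75) and Lamb3 (-3.13) fell, and Lama5 read 6608, 4982 and 7221 in Nat1+/- and 9985, 12971 and 14402 in Nat1-/- (0.99 ± 0.17). Integrins rose in 7 of 20 cases, Itga6 (0.96), Itga5 (1.097) and Itgb4 (1.82) among them, and fell in 4. The main beta chain, Itgb1 of chromosome 8, read 8587, 8413 and 9082 in Nat1+/- and 3084, 4086 and 4990.0 in Nat1-/- (-1.13 ± 0.17, -0.72 after centring).

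Of 57 matrix proteases and inhibitors, 7 rose and 20 fell (median log2 difference -0.33). Adam19 read 2217, 1893 and 2004 in Nat1+/- and 230.3, 390.3 and 432 in Nat1-/- (-2.58 ± 0.21) and the inhibitor Serpine2 376, 551 and 676 in Nat1+/- and 38.8, 46.6 and 70.1 in Nat1-/- (-3.34 ± 0.27), and Mmp2 of chromosome 8 fell (-3.32, -2.92 after centring). Of 10 tested keratins and keratin regulators, 3 rose and 4 fell (median log2 difference -0.24). Krt18 and Krt7, keratins of simple epithelia, were lower (-1.35 and -1.41), while Krt42 (1.12) and Krt17 (0.83) were higher. Krt18 read 358, 1153 and 408 in Nat1+/- and 207, 239.8 and 201 in Nat1-/-, B4 being high, and its difference was -0.82 without B4. The call of Krt7 was lost without B4 or B2. Without A7 there were 4 higher among the matrix protease genes and 3 higher among the laminin and nidogen genes. Leaving out B4 gave 1 lower among the keratins, 4 higher among the matrix protease genes and 13 lower among the matrix protease genes. With B12 left out the counts were 4 higher among the matrix protease genes and 3 higher among the laminin and nidogen genes. The fit without B2 had 2 lower among the integrins, 2 lower among the keratins, 4 higher among the matrix protease genes and 13 lower among the matrix protease genes. Omitting C3 gave 2 lower among the keratins.

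Genes of neurons and other excitable cells fell more often than they rose. So did all tested genes with means under 200, and these lists were not matched for level. Of 9 neuron markers tested, 0 rose and 7 fell with limma (median log2 difference -2.06), and 0 rose at an unadjusted p under 0.05 or in edgeR or DESeq2. Map2, a dendritic microtubule protein, read 300.4, 314 and 275 in Nat1+/- and 52.3, 71.9 and 92.4 in Nat1-/- (-2.06 ± 0.23; adjusted p = 0.000182), the neurofilament gene Nefl 178, 261 and 293 in Nat1+/- and 49.7, 53.3 and 53.7 in Nat1-/- (-2.17 ± 0.24; adjusted p = 0.000186) and the RNA-binding protein gene Elavl4 70.2, 77.7 and 77.1 in Nat1+/- and 13.97, 15.99 and 14.9 in Nat1-/- (-2.25 ± 0.26). Each gene's groups were well apart. The summed level of all 11 markers was 3566 to 7080 in Nat1+/- and 2509 to 2895 in Nat1-/-, most of it from Stmn2. The part of neuron-like cells in the channel, receptor and synapse values that follow was not tested.

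Of 26 calcium and sodium channel genes, 6 rose and 14 fell (median log2 difference -1.35). The calcium channel subunit Cacna2d1 read 220.4, 203 and 244 in Nat1+/- and 32.6, 35.97 and 70.1 in Nat1-/- (-2.32 ± 0.29; adjusted p = 0.000363), and Cacna1b fell (-1.700). Of 45 potassium channels, 6 rose and 17 fell (median log2 difference -0.49). Kcnj3 read 109, 179 and 214 in Nat1+/- and 24.8, 22.6 and 11.9 in Nat1-/- (-3.03 ± 0.34), Kcnn4 fell (-3.22), and Kcnh2 (1.64) and Kcnh3 (1.44) rose. Transmitter receptors counted 3 higher and 9 lower of 30, with the kainate receptor Grik3 higher (1068, 632 and 1005 in Nat1+/- and 3558, 3092 and 2679 in Nat1-/-; 1.81 ± 0.20) and Gria3 (-3.47), Gabre (-2.95) and Chrna7 (-1.798) lower. Of 29 synapse organisers 7 rose and 10 fell. The teneurin Tenm4 read 531, 505 and 813 in Nat1+/- and 4342, 4977 and 3198 in Nat1-/- (2.77 ± 0.23) and its relative Tenm3, of chromosome 8, 2265, 2070.1 and 2543 in Nat1+/- and 800.1, 889 and 1008 in Nat1-/- (-1.35 ± 0.14, -0.95 after centring). Dropping B12 gave 5 higher among the transmitter receptors. When C3 was dropped there were 5 higher among the transmitter receptors.

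Of 26 serine, glycine and one-carbon genes, 2 rose and 6 fell (median log2 difference -0.13), near the shares over all genes for the lower ones. Phgdh, the first enzyme of serine synthesis, read 2657, 2598 and 2837 in Nat1+/- and 299.6, 242 and 514 in Nat1-/- (-3.01 ± 0.24; adjusted p = 4.02e-05), and Psat1 of the next step read 9862, 11395 and 9004 in Nat1+/- and 4106, 3849.9 and 6529 in Nat1-/- (-1.098 ± 0.20; adjusted p = 0.00225). The glycine-cleaving enzyme Gldc read 8156, 9757 and 8607 in Nat1+/- and 1696, 3449 and 3116 in Nat1-/- (-1.74 ± 0.24). Each null clone lay under each Nat1+/- clone for these 3.

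Of 31 glycolysis enzymes, 3 rose and 4 fell (median log2 difference -0.28). Ldhb read 12017, 13794 and 8801 in Nat1+/- and 1830.4, 2544 and 5233 in Nat1-/- (-1.97 ± 0.34), Eno1 23266, 22594 and 23536 in Nat1+/- and 10788, 15177 and 12161 in Nat1-/- (-0.88 ± 0.15), and Pfkm fell (-1.102) while Pfkfb4 rose (1.33). WT was nearer the null clones for Ldhb (2709 and 3966) and for Eno1 (13389 and 17118). In the citric acid cycle 2 of 26 rose and 5 fell. Suclg2 read 1781, 2312 and 2206 in Nat1+/- and 586, 634 and 749.9 in Nat1-/- (-1.67 ± 0.15), and Fh1 (-1.15), Sdhc (-0.51) and Idh1 (-0.73), all 3 of chromosome 1, were lower. After centring, Sdhc and Idh1 were not called (adjusted p = 0.15 and 0.0804). In WT, Fh1 read 2259 and 2810 and Idh1 2240 and 3002, nearer the null means. Fatty acid oxidation had 4 higher and 0 lower of 20 with limma (1 lower at an unadjusted p under 0.05, 0 in edgeR and DESeq2), where Acaa1a (0.88), Slc25a20 (0.88) and Etfdh (0.81) rose. Cholesterol synthesis had 6 higher and 2 lower of 26, among the higher Scap (1.23), which escorts the regulator SREBP, Srebf2 (0.50) and Pmvk (0.99). The call of Idh1 was lost without B4. The call of Srebf2 was lost without B2. Without A7 there were 1 higher among the glycolysis enzymes and 0 higher among the cycle enzymes. Leaving out C1 gave 0 higher among the cycle enzymes. With B2 left out the counts were 1 higher among the glycolysis enzymes, 0 higher among the cycle enzymes and 2 higher among the cholesterol synthesis genes. The fit without C3 had 12 lower among the glycolysis enzymes, 0 higher among the cycle enzymes, 8 lower among the cycle enzymes, 4 lower among the fatty acid oxidation genes and 4 higher among the one-carbon genes.

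Of the glutathione and antioxidant genes, 18 of 38 fell and 5 rose (median log2 difference -0.50). The glutathione transferases Gstm1 (446, 308 and 394 in Nat1+/- and 100.4, 89.3 and 118 in Nat1-/-; -1.88 ± 0.20), Gstm5 (-3.42) and Mgst1 (-4.14) fell, and so did the haem oxygenase Hmox1 of chromosome 8 (-1.69, -1.28 after centring). The metallothioneins Mt1, Mt2 and Mt3, metal buffers that are neighbours on chromosome 8, fell with log2 differences of -1.800, -1.36 and -2.88, or -1.397, -0.95 and -2.48 after centring. The iron exporter Slc40a1 fell (-3.37). Among transporters of amino acids and glucose, 9 of 47 rose and 16 fell. Slc38a4 read 6946, 5331 and 7069 in Nat1+/- and 987, 553 and 328 in Nat1-/- (-3.502 ± 0.32; adjusted p = 7.23e-05), and the X-linked creatine transporter Slc6a8 read 1438, 875 and 1434 in Nat1+/- and 9789, 7899.6 and 4331 in Nat1-/- (2.51 ± 0.29; adjusted p = 0.00022), against the direction of most called X genes. Omitting B4 gave 2 higher among the antioxidant genes. Dropping B12 gave 2 higher among the antioxidant genes. When B2 was dropped there were 2 higher among the antioxidant genes.

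Of the cyclins, CDKs and their inhibitors, 13 of 39 rose and 3 fell (median log2 difference 0.35). The G1 cyclin Ccnd3 read 1946, 1474 and 1981 in Nat1+/- and 7335, 5354 and 3852 in Nat1-/- (1.58 ± 0.22; adjusted p = 0.000531), and Cdc25b (1.095) and the elongation kinase Cdk9 (1.01) rose. The retinoblastoma relative Rbl2, on chromosome 8, fell (-1.14, -0.73 after centring). Replication genes had 2 higher and 8 lower of 49, and 2 of the lower ones lie on chromosome 8. Of those, the helicase subunit Mcm5 read 15737, 14302 and 15399 in Nat1+/- and 9656, 9722 and 9153 in Nat1-/- (-0.67 ± 0.13) and the licensing factor Cdt1 6389, 4555 and 5470.2 in Nat1+/- and 3612, 3701 and 3038 in Nat1-/- (-0.66 ± 0.15), and neither was called after centring (-0.27 and -0.25; adjusted p = 0.0848 and 0.168). Pold2 (-0.73) and Cdc7 (-0.73) were lower on other chromosomes. Recombination and Fanconi genes had 3 higher and 7 lower of 30, with Rad50 (-1.19), Blm (-0.69) and Mre11a (-0.61) lower and Brca2 higher (0.57). Apoptosis regulators rose in 12 of 38 cases and fell in 5. Bak1 read 498, 377 and 448 in Nat1+/- and 1382, 1011 and 957 in Nat1-/- (1.33 ± 0.19), and Bad (1.28) and Htra2 (1.09) rose. The call of Cdc7 was lost without A7 or B2. Without A7 there were 0 higher among the replication genes and 4 lower among the replication genes. Leaving out B4 gave 7 higher among the cell-cycle genes, 0 higher among the replication genes and 5 lower among the replication genes. With C1 left out the counts were 1 lower among the cell-cycle genes, 4 lower among the recombination genes and 3 lower among the apoptosis genes. The fit without B2 had 7 higher among the cell-cycle genes, 1 lower among the cell-cycle genes, 0 higher among the replication genes, 3 lower among the replication genes, 1 higher among the recombination genes, 4 lower among the recombination genes and 6 higher among the apoptosis genes. Omitting C3 gave 4 higher among the replication genes, 11 lower among the recombination genes and 8 lower among the apoptosis genes.

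Lin28b and Trim71, both tied to the let-7 microRNAs, moved in opposite directions. Lin28b, a blocker of let-7 microRNA maturation, read 859, 957 and 873 in Nat1+/- and 296, 125 and 71.6 in Nat1-/- (-2.68 ± 0.40; adjusted p = 0.000796), and Trim71, itself a let-7 target, read 14205, 13359 and 17358 in Nat1+/- and 40523, 37622 and 27233 in Nat1-/- (1.22 ± 0.17; adjusted p = 0.000578). C3 was lowest of the null clones for both. Drosha rose (0.53) and Xpo5 fell (-0.45), in a list of 5 higher and 2 lower of 18. Splicing regulators had 6 higher and 12 lower of 57. The neural Ptbp2 read 2136, 1794 and 1556 in Nat1+/- and 868, 653 and 686 in Nat1-/- (-1.31 ± 0.16) and Celf4 fell (-1.36), while Ptbp3 rose (0.79). Decay factors had 11 higher and 6 lower of 55, the higher ones near the share over all genes. The decapping enzyme Dcp2 (0.95), Zfp36l2 (1.59) and Exosc5 (0.86) were higher and Dis3 lower (-0.61). The call of Drosha was lost without B2. The call of Xpo5 was lost without A7. Dropping B4 gave 2 higher among the microRNA machinery genes. When B12 was dropped there were 3 lower among the decay genes and 3 higher among the microRNA machinery genes. Without B2 there were 3 lower among the decay genes and 1 higher among the microRNA machinery genes. Leaving out C3 gave 12 higher among the splicing genes and 18 higher among the decay genes.

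Of 37 aminoacyl-tRNA synthetases 4 rose and 9 fell, Eprs (-0.89) and Iars2 (-0.62) of chromosome 1 and Kars of chromosome 8 (-0.87, -0.46 after centring) among the lower, and Iars2 was not called after centring (adjusted p = 0.0528). Of 14 genes of the CCT chaperonin, which folds actin and tubulin, and of prefoldin, 1 rose and 8 fell (median log2 difference -0.38). Cct4 read 21210.1, 29738 and 22933 in Nat1+/- and 13536, 14728 and 16309 in Nat1-/- (-0.72 ± 0.15), with Cct5 (-0.57) and Cct3 (-0.46) lower and Pfdn1 higher (0.48). Proteasome genes were nearly all uncalled, 1 higher and 6 lower of 49, and Psmd7 of chromosome 8 (-0.72) was not called after centring (-0.32; adjusted p = 0.122). Heat shock and endoplasmic reticulum chaperones had 7 higher and 6 lower of 39, near the shares over all genes. Among them Hsf2 was lower (-0.71) and Hsph1 (0.69) and Creld2 (0.56) were higher. Of 47 lysosome and autophagy genes 11 rose and 8 fell, near the shares over all genes. Gabarapl1 read 847, 773 and 729 in Nat1+/- and 211, 157 and 250.5 in Nat1-/- (-1.94 ± 0.19) and its paralogue Gabarapl2 1091, 1291 and 1100.3 in Nat1+/- and 2456, 2572 and 2931 in Nat1-/- (1.19 ± 0.14), although Gabarapl2 lies on chromosome 8. With A7 left out the counts were 4 lower among the synthetases. The fit without B4 had 5 lower among the synthetases, 4 lower among the CCT and prefoldin genes and 2 lower among the chaperones. Omitting C1 gave 3 lower among the chaperones. Dropping B2 gave 2 higher among the synthetases, 5 lower among the synthetases, 4 lower among the CCT and prefoldin genes, 3 higher among the chaperones and 3 lower among the chaperones. When C3 was dropped there were 10 lower among the chaperones and 13 lower among the lysosome and autophagy genes.

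Imprinted clusters differed among themselves. All 3 tested genes of the Peg3 cluster fell, Zim1 (53.9, 54.7 and 54.2 in Nat1+/- and 3.62, 3.996 and 2.98 in Nat1-/-; -3.61 ± 0.31) and Usp29 (140.4, 377 and 81.3 in Nat1+/- and 21.7, 10.7 and 26.8 in Nat1-/-; -3.07 ± 0.52) beside Peg3. In the Prader-Willi cluster 3 of 6 fell, with Ndn (211, 289 and 259.7 in Nat1+/- and 101, 87.9 and 118 in Nat1-/-; -1.299 ± 0.20) lower by far less than Snrpn. Of the Dlk1-Dio3 cluster both tested genes fell, Dlk1 (4.90, 35.99 and 24.3 in Nat1+/- and 4.14, 0 and 0 in Nat1-/-) and Dio3 (13.1, 8.64 and 14.3 in Nat1+/- and 3.62, 5.33 and 4.47 in Nat1-/-). Of 8 genes of the H19-Igf2 and Kcnq1 clusters, Slc22a18 (1.64) and Tssc4 (0.55; adjusted p = 0.0535 after centring) rose, and Igf2 (-1.31) and Ascl2 (-1.59) fell with overlapping groups. The call of Dio3 was lost without A7, C1, B12, B2 or C3. The call of Tssc4 was lost without A7, B4, B12 or B2. The call of Igf2 was lost without B4, C1, B12 or C3. The call of Ascl2 was lost without A7, B4, C1, B12 or B2. Without B4 there were 0 lower among the H19-Igf2 and Kcnq1 genes. Leaving out C1 gave 0 lower among the H19-Igf2 and Kcnq1 genes. With B12 left out the counts were 0 lower among the H19-Igf2 and Kcnq1 genes.

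X-linked multicopy genes of the Xlr, Rhox and Magea families fell in 17 of 23 cases, and 0 rose with limma, at an unadjusted p under 0.05, or in edgeR or DESeq2 (median log2 difference -2.83). Rhox6 read 29.4, 77.7 and 37.1 in Nat1+/- and 4.14, 2.66 and 1.49 in Nat1-/- (-3.64 ± 0.50) and Rhox9 47.4, 69.1 and 45.7 in Nat1+/- and 0.518, 3.996 and 1.49 in Nat1-/-, with at most 3 counted reads of Rhox9 in each null clone. Some members of a family are near-identical, and counting can divide reads among those. B4 was the highest Nat1+/- library, with a list median of 0.98 against -0.61 and -0.17 in A7 and C1. After centring, which lifts the X chromosome in the null clones, 15 fell and 1 rose.

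Several genes of MHC class I antigen presentation fell. Of 27 interferon response genes, 4 rose and 13 fell (median log2 difference -0.82). B2m, the light chain of MHC class I, read 327, 459 and 378 in Nat1+/- and 51.8, 37.3 and 71.6 in Nat1-/- (-2.87 ± 0.25; adjusted p = 5.75e-05), and the peptide transporter gene Tap1 read 111, 196 and 207 in Nat1+/- and 30.02, 17.3 and 26.8 in Nat1-/- (-2.73 ± 0.31; adjusted p = 0.000236). The immunoproteasome subunit Psmb9 read 40.8, 96.4 and 106 in Nat1+/- and 15.01, 6.66 and 10.4 in Nat1-/- (-2.76 ± 0.42; adjusted p = 0.000968). In each the highest null clone lay under the lowest Nat1+/- clone. Ifit2 fell too (-2.78), and the antiviral adaptor Mavs rose (392, 358 and 371 in Nat1+/- and 728, 869 and 671 in Nat1-/-; 1.01 ± 0.15).

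Further interferon response genes given here were named after their values were seen. Tap2 (-2.84), Psmb8 (-2.99), the class I activator Nlrc5 of chromosome 8 (-2.09, -1.69 after centring) and the heavy chain H2-K1 (-0.78) fell, H2-K1 with overlapping groups. H2-D1 (-0.31, adjusted p = 0.361), a heavy chain with close relatives among which counting can divide reads, was not called. Neither was Irf1 (0.26, adjusted p = 0.443), a factor of interferon signalling. The fit without B4 had 2 higher among the interferon response genes. Omitting B12 gave 2 higher among the interferon response genes. Dropping B2 gave 2 higher among the interferon response genes.

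**Figure D5:**
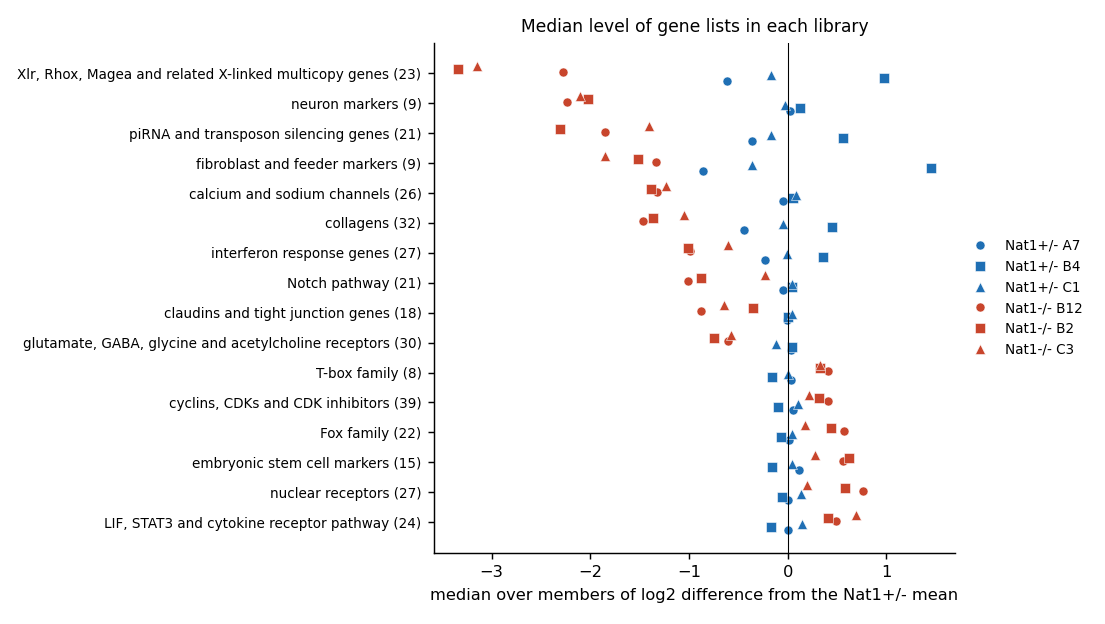
Median over the tested members of a list of the log2 difference from the Nat1+/- mean (x axis), 1 point per library, for the 10 lists with the lowest and the 6 with the highest median among lists of at least 8 tested genes. Null libraries (red) lie apart from Nat1+/- libraries (blue) in each, and B4 stands to the right of A7 and C1 for 8 of the 10 lowest lists, among them X-linked multicopy, piRNA, fibroblast, collagen and interferon genes.

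The null clones were not equal. The median SD of log2 values over clones was 0.26 in Nat1-/- and 0.20 in Nat1+/-, and it was larger in Nat1-/- for 60.6% of genes. C3 was the null clone nearest the Nat1+/- mean for 1617 of the 2730 higher genes (59.2%) and 1328 of the 2789 lower genes (47.6%). B2 was nearest for 13.8% and 17.8%. Among higher genes the median difference from the Nat1+/- mean was 0.90, 0.84 and 0.68 for B12, B2 and C3, and among lower genes -1.31, -1.43 and -1.15. B4 was the Nat1+/- clone farthest from the null mean for 57.1% of higher and 52.5% of lower genes. The WT mean lay nearer Nat1+/- than Nat1-/- for 66.5% of higher and 78.3% of lower genes, and beyond the null mean for 8.21% and 7.21%. These shares use the clones that made the calls and are descriptions. Blm, Eprs, Iars2 and Krt17 were among the genes whose WT mean lay nearer the null mean. In WT, Blm read 3018 and 3208, Eprs 9481 and 12378, Iars2 2780 and 3148, and Krt17 701 and 935. Without C3, 6233 genes were called, and without B4, 4055.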

How the data were processed

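Total RNA was sequenced beside ribosome-protected fragments with the TruSeq Ribo Profile Mammalian Kit, per the labels' protocols. The submitters' processing notes name HTSeq 0.6.1, TopHat2 2.1.0, Bowtie2 2.2.8, bcl2fastq 2.17, cutadapt 1.9.1 and DESeq2, and the builds mm10 and GRCm38.p4. Strand and multi-mapping settings are not given in the sources used here. Deposited by the authors was 1 table of normalised read counts (a signal, each count over its library's size factor). In each library the values were whole multiples of 1 read (100% within 0.001), so library totals and whole reads were recovered.

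Genes with a mean of at least 10 over the 8 Total libraries were tested with limma 3.58.1 (R 4.3.3, trended variance) on log2(value + 1), with the 3 genotype means fitted over the 8 Total libraries and Benjamini-Hochberg adjustment over 13813 genes. All 8 libraries share 1 estimate of spread. On data simulated for this comparison over 13813 genes, 62 genes were changed 1.5-fold, 70 2-fold and 68 4-fold. Of these, 8.06%, 62.9% and 86.8% were recovered, with 8 false calls. Far fewer genes were changed there than were called here, so these rates do not carry over to the real comparison. Named genes were Eif4g2, the 12 highest and 12 lowest differences among calls averaging 50 reads or more without overlap (predicted genes passed over), the 6 called genes of highest mean, and up to 4 called members of smallest adjusted p in each of 68 gene lists. Others were chosen after their values were seen, and most are said to be. A few named genes are not reported here. Members and lists were chosen with earlier results of these data known, so counts over them are descriptions. Chromosomes and promoters came from RefSeq tables (GRCm38.p6), and 13681 of the tested genes (99.0%) had a chromosome. Alternatives were other filters, pseudocounts, scalings and fits, edgeR 4.0.16 and DESeq2 1.42.0 on recovered reads, each library left out, a replicate block, and centring within chromosomes. Tables and figures used Python 3.11.15, pandas 2.3.3, numpy 2.4.6 and matplotlib 3.10.9.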

Additional observations from a re-analysis of the deposited data

How the results depend on the processing

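No gene was called with opposite signs under any alternative run. Against 5519 calls, edgeR's quasi-likelihood test gave 5396 and DESeq2 5862 on recovered reads, TMM factors 5448, a fit of the 6 libraries alone 4754 and the 5 libraries left without the deep B12 4201. With 1 library left out the calls ranged from 3579 (without B2) to 6233 (without C3), the higher calls from 1665 to 3116 and the lower from 1914 to 3117. Calls of at least 2-fold ranged from 759 to 1150 higher and from 1409 to 1888 lower. With a minimum mean of 50, 11604 genes were tested and 1066 were at least 2-fold lower. Of the 2209 genes with means of 10 to 50 that this filter left out, 32.1% were called lower and 5.84% higher in the main fit. The replicate block, fitted to the 6 libraries without WT, gave 3742 calls, 1797 of them higher. Its like comparison is the fit of the 6 libraries alone, with 4754 calls. Deviations of same-numbered clones from their genotype means had correlations of -0.19, -0.12 and -0.14. Those of the other clone pairs ran from -0.002 to 0.12. The deviations of 3 clones from their mean sum to 0, so these values cannot settle whether the numbers pair the clones. Of 273 named genes, 13 lost and 1 gained a call under the block, and 4 lost theirs in the 6 libraries alone without a block. Without B2, 18 lost theirs, 8 after centring within chromosomes, and 0 under TMM factors, equal library sums or robust variance. The cause of these losses was not tested. Without chromosomes 8 and X 4957 genes were called, 2643 of them higher. Depth limits the low genes, whose 0 counts allow up to 4.90 normalised reads, and genes read under 10 on average were not tested.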
